A study of Mus musculus with 18 samples.

Results

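The GIMAP genes (GTPases of immunity-associated proteins) code for small GTPases of lymphocytes, and the levels of all 8 mouse genes named Gimap1, Gimap3, Gimap4, Gimap5, Gimap6, Gimap7, Gimap8 and Gimap9 were followed across 6 groups of arrays of a mouse B lymphoma line. They were taken by name from the annotation of a whole-transcriptome array, as the rows that carry 1 symbol only, and are 8 of the 30176 genes measured in that way. Each had exactly 1 such row (a transcript cluster, the set of probes that reports a transcribed region), so no choice among rows was needed. Their Entrez identifiers are 16205 (Gimap1), 83408 (Gimap3), 107526 (Gimap4), 317757 (Gimap5), 231931 (Gimap6), 231932 (Gimap7), 243374 (Gimap8) and 317758 (Gimap9).

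The cells were M12-5B3, a p53-deficient line of the germinal center stage with RAG transgenes that tetracycline keeps silent. USFKD cells had been transduced with lentiviral shRNAs against both Usf1 and Usf2, which code for the E-box binding transcription factors USF1 and USF2, and the control cells with a scrambled shRNA (sshRNA). Both came through puromycin selection as clones, so the knockdown and the selection of clones cannot be told apart in any difference between the cell lines. RNA was taken from USFKD and from sshRNA cells without irradiation (no IR) and 1 day (1d IR) or 7 days (7d IR) after a single exposure to 5 Gy of ionizing radiation, with 3 arrays for each of the 6 groups and 18 in all. The labels give no time for the no IR arrays, and no group is an unirradiated culture kept for 7 days. Irradiation and time in culture therefore cannot be told apart in a change from no IR to 7d IR. The values are deposited log2 intensities, in which a difference of 1 is a doubling of the deposited intensity. Each gene is compared only with itself because probes differ in brightness.

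GIMAP proteins are guanine nucleotide binding proteins related in structure to septins and dynamins, and several of them are held at intracellular membranes by their C-terminal ends. In rodents their loss shortens the life of lymphocytes: Gimap5 mutations cause lymphopenia in mice and in the diabetes-prone BB rat, and Gimap1 is needed for the survival of mature T and B cells in mice. Gimap6 binds a member of the ATG8 family of autophagy proteins, Gimap4 affects the pace of T cell death, Gimap3 is a close paralog of Gimap5 that influences the segregation of mitochondrial DNA, and human GIMAP7 can stimulate the GTPase activity of GIMAP2. The family is best known from T cells, with lower or more selective expression in B cells.

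The labels held for one of the targeted genes at the RNA level. Usf2 was lower in USFKD cells by a log2 difference of -2.15 ± 0.16 (SE) with no IR, -1.95 at 1d IR and -3.39 at 7d IR on its brighter transcript cluster, and by -1.32 to -1.98 at no IR and 7d IR on the other. Usf1 differed by -0.07, -0.10 and -0.11 at the same times (limma adjusted p = 0.799, 0.712 and 0.432), so no fall in its RNA was seen on these arrays. The Usf1 group means, 5.16 to 5.28, were close to or under the mean negative control of the arrays (5.18 to 5.97), where a fall may not be readable. Protein is not read by the arrays, and the paper reports by Western blot that USFKD cells had less of both USF1 and USF2. Of 8 B cell markers with a row of their own, 7 were above the dim limit of 4.66, the 95th percentile of the mean levels of 1716 olfactory and vomeronasal receptor genes; Ighm, the IgM heavy chain, was not. The 6 arrays taken at 7 days stood apart from the other 12, with hybridization spikes at 11.4 to 11.8 against 10.6 to 11.1 and negative controls averaging 5.81 to 5.97 against 5.18 to 5.66. Every comparison of 7d IR with an earlier time carries that difference, and its part in the results was not tested.

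Of the 8 GIMAP genes, 5 were above the dim limit on every array: Gimap1, Gimap5, Gimap6, Gimap8 and Gimap9. Gimap7 was above it in the 3 USFKD groups only, on 8 arrays in all. Gimap3 passed it in the sshRNA 1d IR group alone, and Gimap4 in no group. The dim limit is itself lower than the mean negative control of every array (5.18 to 5.97). Gimap5 and Gimap6 lay under that mean on every sshRNA array, so passing the dim limit does not place a gene clearly above background. The mean levels over the 6 groups spanned 1.66 for Gimap6 and 1.16 for Gimap9, 0.85 for Gimap5, 0.71 for Gimap7, 0.69 for Gimap8, and between 0.23 and 0.53 for Gimap1, Gimap3 and Gimap4. Compared with the typical SD within a group, which was 0.07 for Gimap5 and up to 0.20 for Gimap7, the spans of Gimap6, Gimap9 and Gimap5 were the widest.

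**Figure D1:**
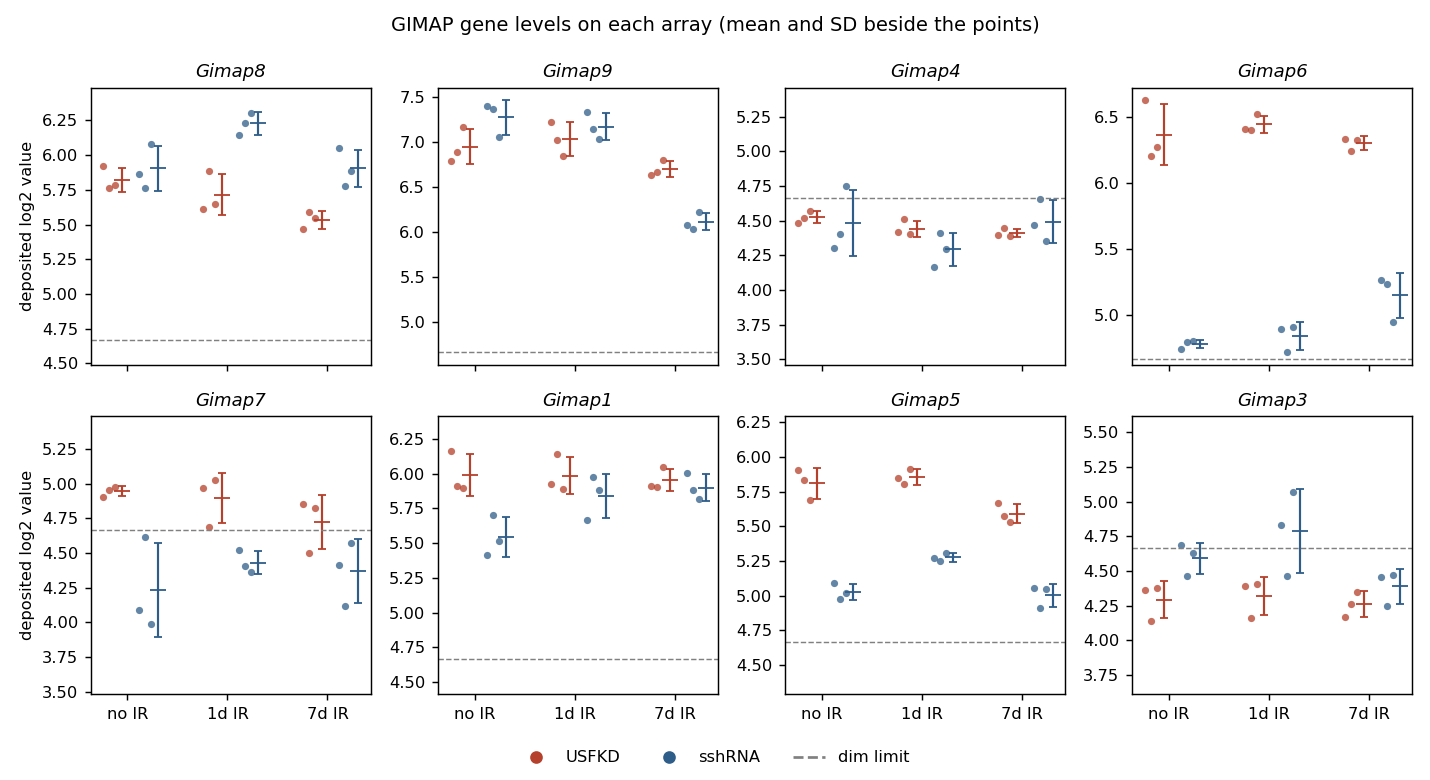
Deposited log2 value of each GIMAP gene on each of the 18 arrays, by treatment, with USFKD arrays in red and sshRNA arrays in blue; the bar beside each set of 3 points is the mean with its SD, the dashed line is the dim limit of 4.66, and each panel has its own vertical range. The 9 USFKD arrays of Gimap6 sit at 6.20 or above and the 9 sshRNA arrays at 5.26 or below, and the sshRNA 7d IR arrays of Gimap9 lie beneath all others.

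The difference between the cell lines was greatest for Gimap6. Its log2 values were 6.63, 6.20 and 6.27 in USFKD no IR, against 4.75, 4.80 and 4.80 in sshRNA no IR. At 1d IR they were 6.41, 6.40 and 6.52 in USFKD cells and 4.89, 4.72 and 4.91 in sshRNA cells. At 7d IR the USFKD arrays read 6.34, 6.24 and 6.33 and the sshRNA arrays 5.26, 5.23 and 4.95. Every USFKD array lay above every sshRNA array. The USFKD groups had means of 6.44 (1d IR), 6.37 (no IR) and 6.30 (7d IR); no IR overlapped both irradiated groups, and 7d IR lay under 1d IR. Among the sshRNA groups 7d IR stood above 1d IR and no IR, which overlapped.

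Gimap6 is listed by the study among the genes with the largest rise in untreated USFKD cells. Its difference at no IR, 1.58 ± 0.11 (a fold of 3.00), is therefore given as a description. The other genes' values at no IR are given alongside in the same way. On every sshRNA array Gimap6 lay under the mean negative control of that array. Its differences and folds at no IR, 1d IR and 7d IR were therefore measured against a level near background. For untreated cells the study lists a smaller fold for Gimap6 than these values give, and likewise for Ptpn14, Tmem260, Nfkbid and Cd300a. A fold of 1.5 on the deposited scale therefore need not match that fold in the study. Why the folds differ was not tested. The 1d IR and 7d IR arrays are separate arrays of the same cell lines, so a lasting difference between these lines would recur on them. Their p-values for Gimap6 are therefore no support apart from the comparison on which it was chosen. On these Gimap6 was higher in USFKD cells by 1.60 ± 0.11 at 1d IR (limma adjusted p = 3.53e-07) and by 1.15 ± 0.11 at 7d IR (adjusted p = 7.92e-06), folds of 3.03 and 2.22. The gap at 7d IR was smaller than that at no IR by -0.43 ± 0.16, a difference whose own 95% interval, -0.77 to -0.10, leaves out 0 but which did not pass the adjustment over all rows (limma unadjusted p = 0.0143, adjusted p = 0.168).

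Gimap5, whose product keeps lymphocytes alive in rodents, showed the same order of cell lines with a smaller gap. The USFKD values were 5.91, 5.83 and 5.69 with no IR, 5.85, 5.80 and 5.91 at 1d IR, and 5.67, 5.57 and 5.53 at 7d IR. The sshRNA values were 5.09, 4.97 and 5.02 with no IR, 5.27, 5.25 and 5.31 at 1d IR, and 5.06, 4.91 and 5.05 at 7d IR. All 9 USFKD arrays lay above all 9 sshRNA arrays. Every sshRNA value, and every USFKD value at 7d IR, lay under the mean negative control of its array. The differences of Gimap5 were therefore also measured against a level near background. The difference was 0.78 ± 0.08 at no IR, 0.58 ± 0.08 at 1d IR (adjusted p = 1.96e-04) and 0.59 ± 0.08 at 7d IR (adjusted p = 1.28e-04). To be called, a change had to exceed 1.5-fold, with an adjusted p under 0.05; that fold is 0.585 on the log2 scale; Gimap5 fell just short of that fold at 1d IR (fold 1.496) and just passed it at 7d IR (fold 1.503). The call at 7d IR is lost, at differences of 0.54 and 0.55, without sshRNA 7d IR replicate 2 or USFKD 7d IR replicate 1.

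Gimap7 was dimmer and its replicates spread more widely. It read 4.91, 4.96 and 4.97 in USFKD no IR, against 4.09, 4.62 and 3.99 in sshRNA no IR. At 1d IR the values were 4.97, 4.69 and 5.03 in USFKD cells and 4.52, 4.41 and 4.37 in sshRNA cells, and at 7d IR they were 4.85, 4.50 and 4.82 in USFKD cells and 4.41, 4.12 and 4.58 in sshRNA cells. All 9 sshRNA arrays were under the dim limit, so the difference of 0.71 ± 0.16 at no IR was measured against a level near background. That call is lost without sshRNA no IR replicate 1 (0.64, adjusted p = 0.0540) or replicate 3 (0.59, adjusted p = 0.0651), and when only the arrays compared are fitted (adjusted p = 0.0547). The median negative control was itself higher in USFKD cells, by 0.18 at no IR, 0.10 at 1d IR and 0.07 at 7d IR, and its part in the values of dim genes was not tested. The cell lines overlapped at 7d IR only, and neither 0.46 ± 0.16 at 1d IR (adjusted p = 0.137) nor 0.36 ± 0.16 at 7d IR (adjusted p = 0.180) passed the test.

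Gimap1, the family member required by mature lymphocytes in mice, was apart between the cell lines only without irradiation. Its values were 6.16, 5.91 and 5.90 in USFKD no IR and 5.41, 5.70 and 5.52 in sshRNA no IR, a difference of 0.45 ± 0.11. The 2 cell lines overlapped after irradiation, at 5.93, 6.14 and 5.89 in USFKD cells against 5.67, 5.98 and 5.88 in sshRNA cells at 1d IR, and at 5.91, 5.90 and 6.05 in USFKD cells against 6.01, 5.88 and 5.81 in sshRNA cells at 7d IR. The differences were 0.15 ± 0.11 at 1d IR (adjusted p = 0.688) and 0.05 ± 0.11 at 7d IR (95% interval -0.18 to 0.29, adjusted p = 0.820).

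None of the remaining 4 genes was called between the untreated cell lines. Gimap8 read 5.92, 5.76 and 5.78 in USFKD no IR and 5.87, 5.76 and 6.08 in sshRNA no IR, a difference of -0.08 ± 0.10. At 1d IR its values were 5.61, 5.88 and 5.65 in USFKD cells, all under the 6.14, 6.23 and 6.31 of sshRNA cells, and at 7d IR they were 5.47, 5.59 and 5.55 in USFKD cells, all under the 6.05, 5.78 and 5.89 of sshRNA cells. These differences of -0.51 ± 0.10 (adjusted p = 0.00626) and -0.37 ± 0.10 (adjusted p = 0.0297) passed the adjusted p but not the fold. Their sign was opposite to that of Gimap6 and Gimap5 at the same times.

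Gimap3 and Gimap4 stayed near background. Gimap3 values ran between 4.14 and 4.40 over the 9 USFKD arrays and between 4.24 and 5.07 over the 9 sshRNA arrays, and its differences of -0.30, -0.47 and -0.13 at no IR, 1d IR and 7d IR did not pass the test in the irradiated groups (adjusted p = 0.059 and 0.605). Its replicate ranges were apart at no IR and at 1d IR, where the sshRNA arrays read 4.83, 4.47 and 5.07, above the 4.39, 4.16 and 4.40 of USFKD cells. Gimap4 ran between 4.39 and 4.57 on USFKD arrays and between 4.17 and 4.75 on sshRNA arrays, with differences of 0.04, 0.15 and -0.08. At this level neither gene can be said to be transcribed or silent. Gimap3 and Gimap5 are close paralogs, and whether their rows share signal was not checked.

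By count, 3 of the 8 genes (Gimap5, Gimap6 and Gimap7) were called higher in USFKD cells at no IR, where 1.86% of all 65956 transcript clusters and 4.5% of the 15559 genes above the dim limit were called higher; since Gimap6 was chosen on this comparison, nothing is read from that count. At 1d IR 1 gene (Gimap6) was called higher, against 1.6% of clusters and 5.23% of those genes, and at 7d IR 2 genes (Gimap5 and Gimap6), against 2.8% and 7.31%. These counts come from the same cell lines, and nothing is read from them either. No GIMAP gene was called lower in USFKD cells at any of the 3 times, where 2.6%, 1.8% and 3.65% of clusters were. Replicate ranges did not overlap for 5, 5 and 4 genes at no IR, 1d IR and 7d IR, where 26.6%, 20.8% and 24% of clusters and larger shares of the genes above the dim limit (50.8% at no IR) had ranges apart. The median difference of the 8 genes was 0.24, 0.15 and 0.20, and that of the genes above the dim limit -0.02, 0.02 and -0.03.

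**Figure D2:**
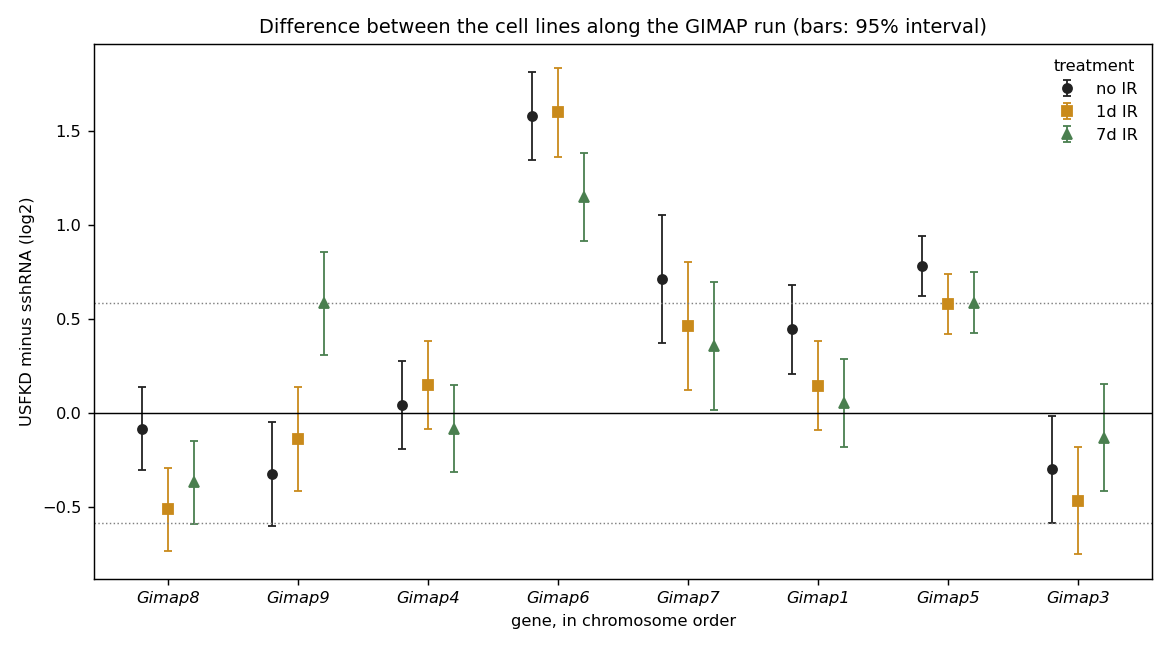
Log2 difference between USFKD and sshRNA cells for each GIMAP gene at no IR, 1d IR and 7d IR, with 95% intervals from the fit; genes stand in their order on the chromosome and dotted lines mark a 1.5-fold change. Gimap6 lies between 1.15 and 1.60 at all 3 times, and Gimap9 moves to the other side of zero at 7d IR (0.58).

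The 8 genes form a single run on chromosome 6, with no other measured gene between them. Their order in the RefSeq gene table of build GRCm38.p6 is Gimap8, Gimap9, Gimap4, Gimap6, Gimap7, Gimap1, Gimap5 and Gimap3. The 4 genes with the highest values in USFKD no IR relative to sshRNA no IR, Gimap6, Gimap7, Gimap1 and Gimap5, are neighbours in places 4 to 7 of that run. Gimap1 was not called, and the genes on either side of them, Gimap4 and Gimap3, differed by 0.04 and -0.30. The irradiated arrays did not keep this order. At 1d IR Gimap4 (0.151) was slightly above Gimap1 (0.146). At 7d IR Gimap9, in place 2, was at 0.58, above Gimap7 (0.36) and Gimap1 (0.05). None of the 20 measured genes that flank the run, 10 on each side and 6 of them above the dim limit, was called higher at no IR, where their median difference was 0.00 and ranged between -0.87 and 0.33. The 1 flanking gene called was the pseudogene Gm7887, at -0.87 ± 0.10. At 7d IR Lrrc61, which codes for a leucine-rich repeat protein, was higher in USFKD cells by 1.03 ± 0.14, the only flanking call at that time, and at 1d IR none was called. Between 7d IR and no IR, 3 flanking genes were called higher in USFKD cells (Gm10243 at 1.08, Lrrc61 at 0.94 and Gm10242 at 0.65) and 1 in sshRNA cells (Gm10243 at 1.42), where 7.29% and 11.5% of clusters were. Across chromosome 6 as a whole, 4.05% of 741 genes above the dim limit were called higher at no IR and 4.45% lower.

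**Figure D3:**
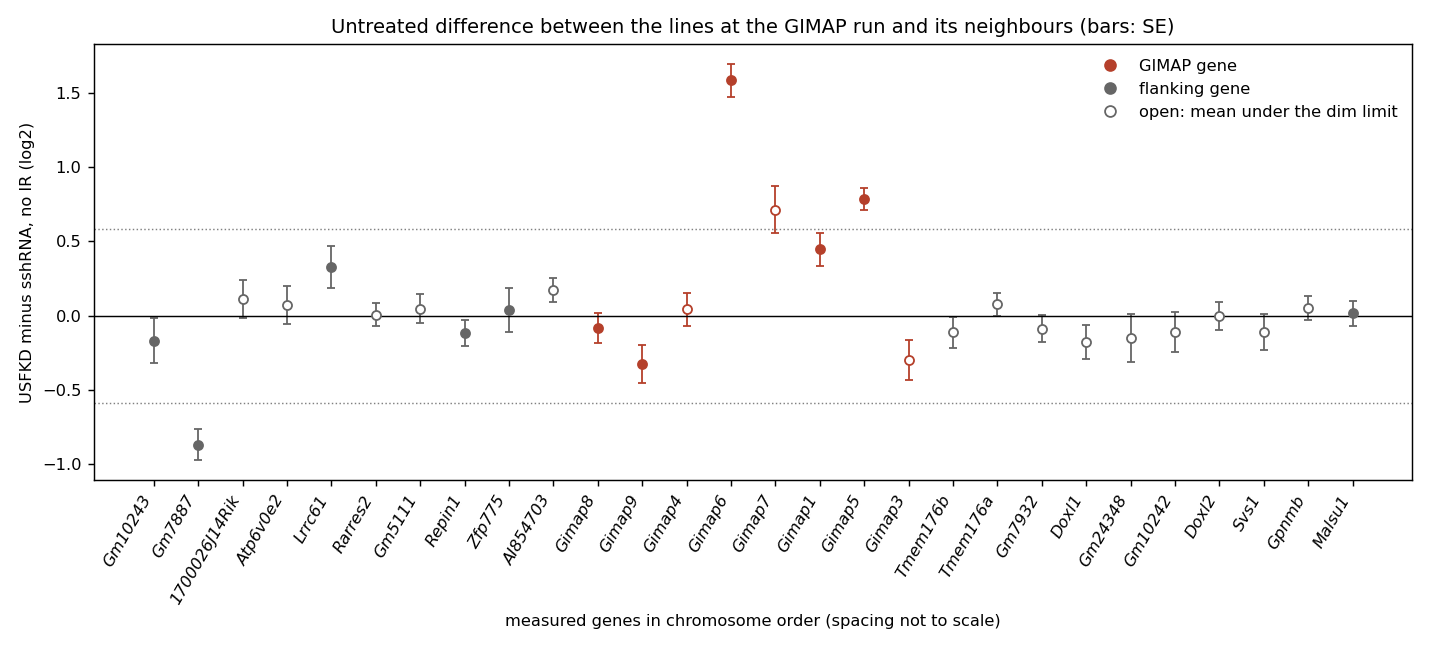
Log2 difference between USFKD and sshRNA cells without irradiation, with its SE, for the 8 GIMAP genes (red) and the 10 nearest measured genes on either side (grey), in chromosome order; open points have a mean level under the dim limit. Gimap6, Gimap7, Gimap1 and Gimap5 lie together between 0.45 and 1.58, while the flanking genes lie between -0.87 and 0.33.

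The promoters were read for sites of the depleted factors. USF1 and USF2 bind the E-box CACGTG, and ETS family factors, which are abundant in lymphocytes, bind sites built on GGAAGT. RefSeq promoter windows, 250 bases before to 50 after each start site in build GRCm38.p6, were found for all 8 genes (9 windows, as Gimap8 has 2 start sites) and searched on both strands. CACGTG was in none of the 9 windows, and 7.15% of all 32851 RefSeq promoters hold it. The general E-box CANNTG, which includes CACGTG, was in the windows of every gene except Gimap1 and Gimap3, and 72.3% of all promoters hold it. GGAAGT was in those of Gimap1, Gimap5, Gimap6 and Gimap9, against 23.8% of all promoters, and the longer CCGGAAGT, of which it is a part, in none, against 3.89%. These matches describe letters in a window and say nothing of binding. The windows of the 3 genes called higher in untreated USFKD cells are given, with that of Gimap9, which was lower in sshRNA 7d IR than in sshRNA no IR. They are on the strand of the gene, with CANNTG and GGAAGT on either strand in capitals.
Gimap6, chr6:48708195-48708494, minus strand: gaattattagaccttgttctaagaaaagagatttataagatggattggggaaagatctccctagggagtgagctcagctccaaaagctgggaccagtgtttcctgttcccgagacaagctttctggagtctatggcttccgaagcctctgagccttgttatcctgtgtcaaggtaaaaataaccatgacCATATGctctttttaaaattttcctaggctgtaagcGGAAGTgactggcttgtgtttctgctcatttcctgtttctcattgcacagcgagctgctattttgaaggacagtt
Gimap7, chr6:48718371-48718670, plus strand: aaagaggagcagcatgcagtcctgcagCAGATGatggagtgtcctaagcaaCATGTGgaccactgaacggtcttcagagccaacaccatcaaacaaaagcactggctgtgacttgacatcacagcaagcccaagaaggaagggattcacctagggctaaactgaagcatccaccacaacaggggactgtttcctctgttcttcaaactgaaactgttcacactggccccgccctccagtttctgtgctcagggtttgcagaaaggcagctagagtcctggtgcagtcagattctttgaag
Gimap5, chr6:48745947-48746246, plus strand: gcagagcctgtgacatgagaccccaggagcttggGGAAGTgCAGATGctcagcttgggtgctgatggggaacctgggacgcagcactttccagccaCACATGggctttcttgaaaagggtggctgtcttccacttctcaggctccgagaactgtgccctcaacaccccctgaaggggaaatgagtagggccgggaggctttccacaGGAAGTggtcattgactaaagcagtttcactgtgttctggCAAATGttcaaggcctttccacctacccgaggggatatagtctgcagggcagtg
Gimap9, chr6:48675885-48676184, plus strand: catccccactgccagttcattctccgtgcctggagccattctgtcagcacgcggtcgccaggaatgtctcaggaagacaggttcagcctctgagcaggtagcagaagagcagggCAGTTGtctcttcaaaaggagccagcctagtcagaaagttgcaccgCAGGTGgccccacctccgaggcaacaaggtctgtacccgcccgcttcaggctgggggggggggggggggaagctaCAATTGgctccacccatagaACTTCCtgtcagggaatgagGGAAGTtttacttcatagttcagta
The Gimap6 window holds 1 E-box, CATATG, and 1 GGAAGT, which begin at positions -61 and -25 relative to the start site. Gimap5 holds 3 E-boxes and 2 GGAAGT, Gimap7 holds 2 E-boxes and no GGAAGT, and Gimap9 holds 3 E-boxes and 2 GGAAGT. In RefSeq a long noncoding RNA gene, Gm46958, overlaps the start of Gimap9, and whether the Gimap9 probes also read it was not checked.

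No GIMAP gene was called 1 day after irradiation in either cell line. In USFKD cells the differences between 1d IR and no IR lay between -0.11 and 0.08, and limma called none, with 0 of 8 genes at an unadjusted p under 0.05, as it called 0% of all 65956 clusters. In sshRNA cells they lay between -0.19 and 0.32 and again none was called, with 3 genes at an unadjusted p under 0.05 and a smallest adjusted p of 0.0960; 1.76% of clusters were called higher and 0.249% lower. Replicate ranges were apart for 0 genes in USFKD cells and 2 in sshRNA cells, against 16.4% and 24.5% of clusters. The responses of the 2 cell lines at 1 day were not called different for any of the 8 genes (smallest adjusted p = 0.663, 1 gene at an unadjusted p under 0.05), nor for any cluster (0%).

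Gimap9 was the only family member called between irradiated and earlier arrays, and only at 7 days in sshRNA cells. Its values in USFKD cells were 6.79, 6.89 and 7.17 with no IR, 7.22, 7.03 and 6.84 at 1d IR, and 6.63, 6.67 and 6.80 at 7d IR. In sshRNA cells they were 7.40, 7.37 and 7.05 with no IR, 7.33, 7.15 and 7.03 at 1d IR, and 6.08, 6.04 and 6.22 at 7d IR. The 3 sshRNA 7d IR arrays were lower than all other 15 arrays, while USFKD 7d IR overlapped USFKD no IR. The fall in sshRNA cells was -1.16 ± 0.13 against no IR (adjusted p = 1.09e-05) and -1.06 ± 0.13 against 1d IR (adjusted p = 5.02e-05), so that sshRNA 7d IR held 0.447 times the no IR level. In USFKD cells the same differences were -0.25 ± 0.13 (95% interval -0.53 to 0.02, adjusted p = 0.211) and -0.33 ± 0.13 (adjusted p = 0.0873).

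The difference between these 7-day responses was itself called for Gimap9: USFKD minus sshRNA was 0.91 ± 0.18 (95% interval 0.52 to 1.30, adjusted p = 0.0193), where 1.15% of clusters and 3.82% of genes above the dim limit were called in that direction. It no longer passes without sshRNA no IR replicate 1 (0.85, adjusted p = 0.0536) or replicate 2 (0.86, adjusted p = 0.0599). The order of the cell lines changed with it. Gimap9 was lower in USFKD cells by -0.33 ± 0.13 at no IR and -0.14 ± 0.13 at 1d IR (adjusted p = 0.783), with overlapping ranges, whereas at 7d IR all 3 USFKD arrays lay above all 3 sshRNA arrays (0.58 ± 0.13, adjusted p = 0.00797, a fold of 1.499).

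For the other 7 genes the 7-day changes were small. In sshRNA cells Gimap6 and Gimap1 were higher at 7d IR than with no IR by 0.37 ± 0.11 and 0.36 ± 0.11 (adjusted p = 0.0197 and 0.0230), both under the fold threshold. Those 2 differences shrink to 0.11 and 0.05 when the arrays are quantile normalized again, with adjusted p up to 0.550 and 0.819 over the alternatives. The median of all clusters was 0.18 higher at 7d IR than with no IR in sshRNA cells and 0.10 higher in USFKD cells. The fall of Gimap9 ran against this shift and was -1.43 after the repeated normalization. In USFKD cells all 8 genes were lower at 7d IR, by differences between -0.29 and -0.03, with 2 genes at an unadjusted p under 0.05 and none called (smallest adjusted p = 0.0621, Gimap5 at -0.22 ± 0.08).

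Only 1 of 8 genes was therefore called lower and none higher in sshRNA 7d IR against no IR, where 4.81% of clusters were called lower and 11.5% higher (16.3% and 15.2% of the genes above the dim limit). In USFKD 7d IR against no IR 0 of 8 were called, where 9.96% of clusters were. Against 1d IR, 1 of 8 was called lower in sshRNA 7d IR, where 4.33% of clusters were, and 0 of 8 in USFKD 7d IR, where 8.47% were called in either direction; sshRNA 7d IR had 7.86% of clusters called higher than at 1d IR. Ranges were apart for 4 of 8 genes in USFKD 7d IR and 3 of 8 in sshRNA 7d IR against no IR, where 31.8% and 49.4% of clusters were, and for 4 of 8 in each cell line against 1d IR, where 36.2% and 43.3% were. Between 7d IR and 1d IR in sshRNA cells, Gimap5 (-0.27 ± 0.08, adjusted p = 0.0164), Gimap8 (-0.32 ± 0.10, adjusted p = 0.0307) and Gimap3 (-0.40 ± 0.13, adjusted p = 0.0396) were lower without reaching the fold. Gimap5 was likewise lower at 7d IR than at 1d IR in USFKD cells (-0.26 ± 0.08, adjusted p = 0.0268). Of 5222 negative controls on the arrays, 1207 passed as higher in sshRNA 7d IR than in sshRNA no IR and 31 as lower, 23.7% together; between the cell lines at no IR the share was 2.14%.

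**Figure D4:**
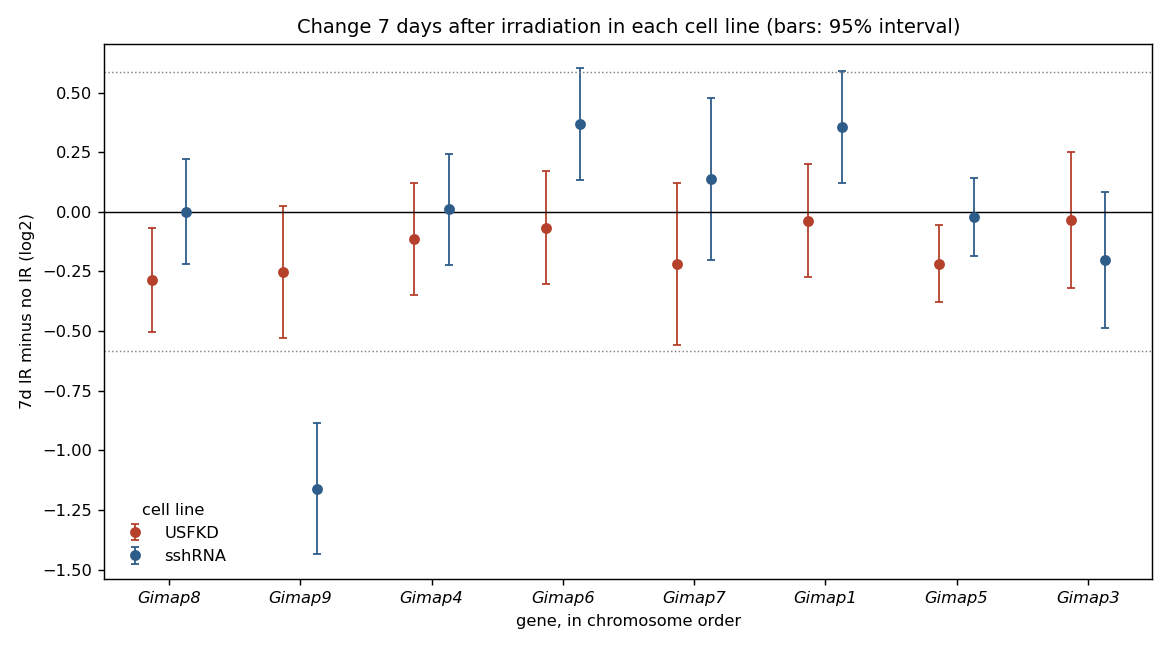
Log2 difference between 7d IR and no IR for each GIMAP gene, with its 95% interval, in USFKD cells (red) and sshRNA cells (blue); dotted lines mark a 1.5-fold change. Gimap9 in sshRNA cells, at -1.16, is the only point beyond a dotted line, and the 8 USFKD points lie between -0.29 and -0.03.

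Because GIMAP genes are best known from T cells, markers of other cells were read on the same arrays. Of 15 T cell markers measured, 3 were above the dim limit in every USFKD group and 5 in every sshRNA group. Over the 15, the mean level was 4.19 to 4.32 on USFKD arrays and 4.26 to 4.45 on sshRNA arrays. Cd3e, Cd4 and Cd8a, which define T cells, averaged 3.66, 3.66 and 4.01, under the dim limit, and those that passed it by their mean over all arrays were Cd5, Cd28 and Lat. Cd3d, Cd3g and Cd2 had means under it, at 4.65, 4.65 and 4.49, but passed it in at least 1 group, at up to 4.93, 4.81 and 4.95. The other 6 of the 15 passed it in no group. None of 7 endothelial markers was above the limit in any group. Of 7 natural killer and cytotoxic markers Prf1, the gene for perforin, passed it in the sshRNA groups only, and of 8 myeloid markers the macrophage gene Adgre1 passed it in the USFKD groups only. The part of these markers in the differences between the cell lines was not tested. In bulk RNA fewer cells of a type and less RNA per cell cannot be told apart.

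Adgre1 was also the gene whose pattern over the 18 arrays was most like that of Gimap6. Among 4461 genes whose group means spanned at least 1, Pearson's r with Gimap6 was 0.977 for Adgre1, 0.976 for Ptpn14, a protein tyrosine phosphatase, and 0.976 for Tmem260. For Gimap5 the nearest 3 were Nfkbid, which codes for a nuclear IκB protein (0.979), Cd300a, an inhibitory receptor (0.973), and Zfyve26 (0.972). Gimap7 was less closely matched, by Nfkbid (0.852), Camk2g (0.846) and Vmn1r2 (0.843). For Gimap9 they were Mrtfb, a coactivator of SRF (0.972), Slc41a2, a magnesium transporter (0.941), and Sorbs2 (0.933), whose differences between sshRNA 7d IR and sshRNA no IR were -1.15, -1.19 and -1.22. These coefficients describe 18 arrays in 6 groups that share the same cell lines and times, and most of each rests on the differences between groups.

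Genes that work with or beside the GIMAP proteins were read from 5 lists drawn from general knowledge. Of 14 ATG8 and autophagy genes, 1 was called between the untreated cell lines: Atg5, part of the conjugation machinery for ATG8 proteins, was lower in USFKD cells, at -0.69 ± 0.10, and the list's median was 0.01. At 7d IR against no IR the calls were 3 higher and 2 lower in USFKD cells, where 9.83% of genes above the dim limit were called higher and 9.13% lower. In sshRNA cells they were 3 higher and 1 lower, where 15.2% and 16.3% were, and these shares stand for the 7-day counts of the other lists too. Gabarap and Atg12 were higher in both cell lines, by 0.85 and 1.10 in USFKD cells and by 0.67 and 0.67 in sshRNA cells, and Ulk1, the kinase that starts autophagy, was lower, at -0.72 in USFKD cells and -0.94 in sshRNA cells. Sqstm1, which codes for the cargo receptor p62, was called in sshRNA cells (1.22 ± 0.12) and read -0.02 ± 0.12 in USFKD cells. Gabarapl2, the ATG8 protein that Gimap6 binds, was at -0.61 ± 0.14 in USFKD cells, which was called, and at -0.58 ± 0.14 in sshRNA cells, just under the fold.

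Of 16 BCL2 family genes, which set the threshold for apoptosis, 1 was called between untreated cell lines (Bak1, a pore-forming death effector, at -0.66 ± 0.18; list median 0.07). At 7d IR 1 gene was called higher and 0 lower in USFKD cells, and 1 higher and 1 lower in sshRNA cells. Bcl2l11, the gene for the BH3-only protein BIM, was higher at 7d IR than with no IR by 1.68 ± 0.17 in USFKD cells and 1.69 ± 0.17 in sshRNA cells. Of 16 genes of lymphocyte survival and quiescence, 2 were called higher and 0 lower in untreated USFKD cells: Cdkn1b, which codes for the cell cycle inhibitor p27, at 1.60 ± 0.12 and the antiproliferative Btg2 at 1.00 ± 0.18, with a list median of 0.15. Btg1, at 1.72 in USFKD cells and 1.65 in sshRNA cells, and the chemokine receptor Ccr7, at 0.95 in USFKD cells and 1.26 in sshRNA cells, were higher at 7d IR than with no IR. In all, 4 of the 16 were called higher and 2 lower in USFKD cells at that time, and 3 higher and 3 lower in sshRNA cells, the last near the shares over all genes.

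Among 19 lymphoid transcription factors, a list that includes the shRNA targets Usf1 and Usf2, 1 was called higher and 4 lower in untreated USFKD cells. The Usf2 call is that of a targeted gene and is not read as a result for the list. Irf4 was higher by 0.89 ± 0.16, and Usf2 itself, Irf8 (-1.19 ± 0.15), Myb (-0.69 ± 0.08) and Lef1 (-0.61 ± 0.12) were lower, with a list median of -0.48. At 7d IR against no IR 0 were called higher and 2 lower in USFKD cells, and 1 higher and 7 lower in sshRNA cells. Ikzf1, which codes for Ikaros, was lower in both (-0.62 ± 0.10 in USFKD cells and -1.34 ± 0.10 in sshRNA cells), as was Lef1 (-0.80 in USFKD cells and -1.25 in sshRNA cells). Of 11 interferon-inducible GTPases, a separate family of immune GTPases, 0 were called higher and 4 lower in untreated USFKD cells: Gbp4 (-0.99 ± 0.19), Gbp3 (-0.73 ± 0.10), Gbp2 (-0.67 ± 0.11) and Gbp9 (-0.61 ± 0.18), while the list's median was 0.07. At 7d IR against no IR 0 were called higher and 5 lower in USFKD cells, and 0 higher and 4 lower in sshRNA cells. Gbp3 and Gbp2 were among them in both, at -0.99 and -1.06 in USFKD cells and at -1.81 and -1.64 in sshRNA cells. For comparison, 4.5% of genes above the dim limit were called higher and 8.51% lower at no IR. At 7d IR against no IR 9.83% and 9.13% were in USFKD cells, and 15.2% and 16.3% in sshRNA cells. The sizes of these lists allow no more than counts.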

How the data were processed

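Total RNA was labelled with the WT Plus kit and hybridized to Affymetrix Mouse Transcriptome 1.0 arrays. The authors deposited log2 values for 72688 rows, made from the scans by RMA (background adjustment, quantile normalization and summary of probes per transcript cluster); Affymetrix Expression Console and RMA are named in the submitters' processing notes without versions, and the genome build of the probes is not given in the sources used here. In 1339 rows a value exceeds 16, the log2 ceiling of a 16-bit scanner, so the exact path to the deposited scale is not settled. Scans were not used here.

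The rows were 65956 transcript clusters and 6732 controls, and 30638 clusters named 1 gene symbol. For each gene the brightest such cluster was used. limma 3.58.1 in R 4.3.3 fitted 1 mean per group to all rows and 18 arrays, with moderated variances and Benjamini-Hochberg adjustment over all rows within each of 11 comparisons; SEs and 95% intervals come from that fit with 14.7 degrees of freedom. It was tested on simulated data with known changes. All 8 GIMAP genes, Usf1 and Usf2, called flanking genes, up to 4 called members of each list at no IR and up to 2 at 7d IR by size, and the 3 most similar genes are named; Gabarapl2 was added after its values were seen. The members and lists were chosen with earlier results of these data known. The study describes the arrays of a group as independent replicates, and the labels number them without saying whether they came from separate clones, so p-values measure the spread between these arrays, and the number of arrays limits the precision. Motifs were counted in RefSeq promoter windows by exact matching in Python 3.11.15, and figures were drawn with matplotlib 3.10.9.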

Additional observations from a re-analysis of the deposited data

Results flagged for a closer look

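The change of Gimap9 from no IR to 7d IR differed between the cell lines by the test of the difference itself. Irradiation and time in culture cannot be told apart in that change. The change in USFKD cells minus the change in sshRNA cells was 0.91 ± 0.18 on the log2 scale (limma adjusted p = 0.0193). It does not pass without sshRNA no IR replicate 1 (adjusted p = 0.0536) or replicate 2 (adjusted p = 0.0599). The change was -0.25 ± 0.13 in USFKD cells and -1.16 ± 0.13 in sshRNA cells, and the 3 sshRNA 7d IR arrays were lower than the other 15. All 7-day arrays also had brighter hybridization spikes and negative controls than the earlier arrays, in both cell lines, and the part of this in the result was not tested.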

How the results depend on the processing

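Over 24 results on single GIMAP genes, of which 9 were called, other settings gave 768 values. Of these, 12 were calls lost, 15 were calls gained and 741 stayed on the same side of the threshold, called or not. There were 0 reversals of sign, scored only where a result was called. Gimap8 at no IR, not called, ran from -0.15 to 0.01 with single arrays left out. Averaging all clusters of a gene, or allowing shared ones, only repeated the main values, because each gene had 1 cluster of its own. Changing the fold threshold could move calls but no values. Gimap6 was called higher in USFKD cells at all 3 times under every setting, at 1.45 to 1.67 for no IR and 1d IR and 1.05 to 1.21 for 7d IR. Of the 8 genes, 8 were above the dim limit in all groups with the 75th percentile of receptor genes and 3 with the 99th, against 5. With no fold threshold the calls were 4 at no IR, 3 at 1d IR and 4 at 7d IR between the cell lines, 3 in sshRNA 7d IR against no IR, 4 in sshRNA 7d IR against 1d IR and 1 in USFKD 7d IR against 1d IR. With a fold over 2 they were 1 at no IR, 1 at 7d IR and 0 for the difference in 7-day response. Array weights gave 2 calls at 1d IR (Gimap5 and Gimap6), and centring on bright clusters gave 1 at 7d IR.

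With single arrays left out, the calls between the cell lines were 2 to 3 at no IR, 1 to 3 at 1d IR and 1 to 3 at 7d IR, and 0 to 1 for the difference in 7-day response. At 1d IR, leaving out sshRNA 1d IR replicate 2 added Gimap3, replicate 3 added Gimap5, and USFKD 1d IR replicate 2 added Gimap5 and Gimap8. At 7d IR 1 call was left without sshRNA 7d IR replicate 2. The Gimap7 call at no IR is lost without sshRNA no IR replicate 1 or 3 and when only the arrays compared are fitted (adjusted p = 0.0540, 0.0651 and 0.0547). The calls of autophagy and BCL2 family genes at no IR, 1 each, became 1 to 3 and 0 to 2. The causes were not tested.

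Over 45 same-numbered pairs of arrays the correlation of deviations ran from -0.42 to 0.33, with 12 over 0.1. Its median was 0.02, against -0.01 for pairs with unlike numbers. With 3 numbers to choose from, 9 of 18 arrays were nearest to their own number. These values do not settle whether the replicate numbers pair the arrays. A replicate block left the GIMAP calls at 3, 1 and 2 between the cell lines and 1 for the difference in 7-day response. Of all clusters, it called 2852 in place of 2937 at no IR and 1190 in place of 1366 for that difference. Other scalings moved the share of higher calls over all clusters: for sshRNA 7d IR against no IR it was 70.5% as deposited, 43.0% after repeated quantile normalization, 54.5% after cyclic loess and 49.6% centred on bright clusters, and for USFKD 7d IR against no IR 73.3%, 46.9%, 59.0% and 46.5%. The share was 87.6%, 64.4%, 82.2% and 54.0% for sshRNA 1d IR against no IR, 64.5%, 44.4%, 51.3% and 59.7% for sshRNA 7d IR against 1d IR, 58.5%, 42.7%, 47.8% and 51.8% for USFKD 7d IR against 1d IR, and 55.6%, 68.3%, 59.0% and 51.7% for the difference in 7-day response. Repeated quantile normalization, added after seeing the data, raised the genes whose group means span at least 1 to 3, against 2.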
